A study of Caenorhabditis elegans with 12 samples.

Results

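The genes described here are 9 regulators of germline stem cells and of entry into meiosis in C. elegans: glp-1, lst-1, fbf-1, fbf-2, puf-8, gld-1, gld-2, gld-3 and nos-3. They were chosen by name and found on the array through probe sets that the platform annotation assigns to 1 gene, which gave 18 of 20701 such probe sets and 9 of 17085 genes. Transcript levels were measured on Affymetrix arrays in germlines of mes-4(ok2326), lin-54(n3423), lin-54(n3423); mes-4(ok2326) and wild-type (N2) hermaphrodites, with 3 arrays per genotype and 12 in all. The comparisons ask how transcript levels depend on MES-4, a histone H3K36 methyltransferase, on LIN-54, a DNA-binding subunit of the DRM complex, and on both. Mutants were homozygotes from heterozygous mothers (M+Z−), kept over the balancer nT1[qIs51], and therefore had maternal product at the start of life. All animals were raised at 20 degrees and taken as young adults 24 h after the L4 stage, and each sample pooled 50 to 70 germlines, cut so as to keep the region between the mitotic tip and late pachytene. The RNA was linearly amplified for labeling, and all p-values measure the spread between these pooled samples. lin-54(n3423) is a large deletion and a null, and mes-4(ok2326) deletes much of the SET domain and still makes a shortened transcript. The paper considers it a likely null, since immunostaining found neither MES-4 nor H3K36me2 in M+Z− germlines.

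The stem cells sit at the distal tip of the gonad, where the somatic distal tip cell presents Notch ligand to the receptor GLP-1. GLP-1 signaling switches on lst-1 and sygl-1, whose products work with the PUF-family RNA-binding proteins FBF-1 and FBF-2 to keep germ cells mitotic. Farther from the tip, branches that contain GLD-1 with NOS-3 and GLD-2 with GLD-3 take cells into meiosis. FBF holds the gld-1 and gld-3 mRNAs back in the stem cell region, so much of this network acts on translation and on poly(A) tails, which transcript levels do not read.

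Array medians were 5.81 to 5.93 on the log2 scale, and arrays of a genotype correlated at 0.989 to 0.996 over probe sets. The lin-54 signal (probe set 177366_s_at) was 6.40, 7.76 and 6.32 in lin-54, 6.81, 6.65 and 6.33 in the double mutant, 10.77, 10.69 and 10.88 in mes-4, and 10.80, 10.78 and 10.86 in wild type. lin-54 replicate 2 (7.76) thus stood apart from the other arrays without LIN-54. The mes-4 probe set 175748_s_at averaged 9.72 ± 0.12 in mes-4 and 10.13 ± 0.22 in the double mutant, against 10.46 ± 0.20 in lin-54 and 10.46 ± 0.08 in wild type (SD, n = 3 each). The other, 188620_s_at, averaged 9.09 ± 0.11 in mes-4 and 9.47 ± 0.19 in the double mutant, against 9.74 ± 0.04 in lin-54 and 9.82 ± 0.01 in wild type. This checks the labels less sharply. A shortened transcript remains, and the double mutant differed from wild type at q = 0.176 on 175748_s_at and q = 0.0586 on 188620_s_at (limma). On 188620_s_at it lay above mes-4 (+0.38, q = 0.0309), and the cause of that difference was not tested. The 12 germ cell markers, such as pgl-1 and glh-1, averaged 10.71 to 11.31 on every array, and the 3 distal tip cell markers, lag-2 among them, averaged 5.34 to 5.59, near the array medians. The 26 sperm markers averaged 6.88 to 9.36 in lin-54 and 7.43 to 9.39 in the double mutant, against 6.05 to 6.35 in mes-4 and 6.16 to 6.31 in wild type, and lin-54 replicate 2 was the lowest of the 6 arrays without LIN-54.

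Few of the 9 genes changed in the main model, which did not use replicate numbers. A gene was called when its most significant probe set had a Storey q at or below 0.05 in limma. None of the 9 was called in mes-4 over wild type, where 5.99% of all genes were (4.04% higher and 1.95% lower), and 2 of the 18 probe sets had an unadjusted p under 0.05, against 15.6% of all one-gene probe sets. None was called in lin-54 over wild type, where 6.08% of all genes were (2.6% higher and 3.48% lower) and 3 of the 18 probe sets had such a p, against 19.9%. In the double mutant over mes-4 the call was gld-3, lower, 1 of 9 genes against 7.77% of all genes called (2.41% higher and 5.36% lower), with 3 of 18 probe sets at an unadjusted p under 0.05, against 19%. The double mutant over lin-54 gave no call, against 2.94% of all genes (1.79% higher and 1.15% lower), with 3 of 18 probe sets at such a p, against 14.5%. The double mutant over wild type again called gld-3, lower, against 4.99% of all genes (2.14% higher and 2.85% lower), and 6 of 18 probe sets had an unadjusted p under 0.05, against 15.3%. Counts of 0 or 1 among 9 genes are near these backgrounds.

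The 4 genotypes also give 2 averages that use all 12 arrays. The mean lin-54 effect is the mean of lin-54 minus wild type and of double mutant minus mes-4. It called gld-3 (lower) and gld-2 (higher), 2 of 9, where 22.6% of all genes were called (11.7% higher and 10.9% lower). By probe set it called 4 of 18, against 21.2% of all, and 5 had an unadjusted p under 0.05, against 29.2%. The mean mes-4 effect is the mean of mes-4 minus wild type and of double mutant minus lin-54, and it called gld-2 and nos-3, both lower, where 11.8% of all genes were called (6.27% higher and 5.48% lower). By probe set it called 2 of 18, against 11.2% of all, and 7 had an unadjusted p under 0.05, against 21.9%. With the replicate number as a block, the mean mes-4 effect called 5 of the 9 genes, described below with the processing. The interaction, which asks whether the 2 losses add up on the log2 scale, called none of the 9 (limma; 1 of 18 probe sets had an unadjusted p under 0.05, against 4.46%) and 0.0351% of all genes.

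Differences were small, and in most comparisons more probe sets lay below zero than above. In mes-4 over wild type 17 of 18 probe sets had a log2 fold change below zero, with a median over the 9 genes of −0.14 against −0.04 over all genes. In lin-54 over wild type 11 of 18 were below zero, with a median of −0.08 against 0.05 over all genes. For the double mutant over wild type 14 of 18 were below zero, with a median of −0.24 against 0 over all genes. Over lin-54 12 of 18 were below zero in the double mutant (median −0.22 against −0.05), and over mes-4 9 of 18 were (−0.02 against 0.04). Regardless of sign, the median change of the 9 genes was 0.14 in mes-4 over wild type, against 0.09 over all genes. It was 0.10 against 0.12 in lin-54 over wild type. For the double mutant it was 0.24 against 0.09 over wild type, 0.22 against 0.10 over lin-54 and 0.09 against 0.11 over mes-4. Probe sets of 1 gene read the same transcripts, so these counts do not stand for 18 separate genes. For 10 of the 18 probe sets the 95% confidence intervals of all 5 pairwise comparisons stayed within a 1.5-fold change (0.585 on the log2 scale).

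**Figure D1:**
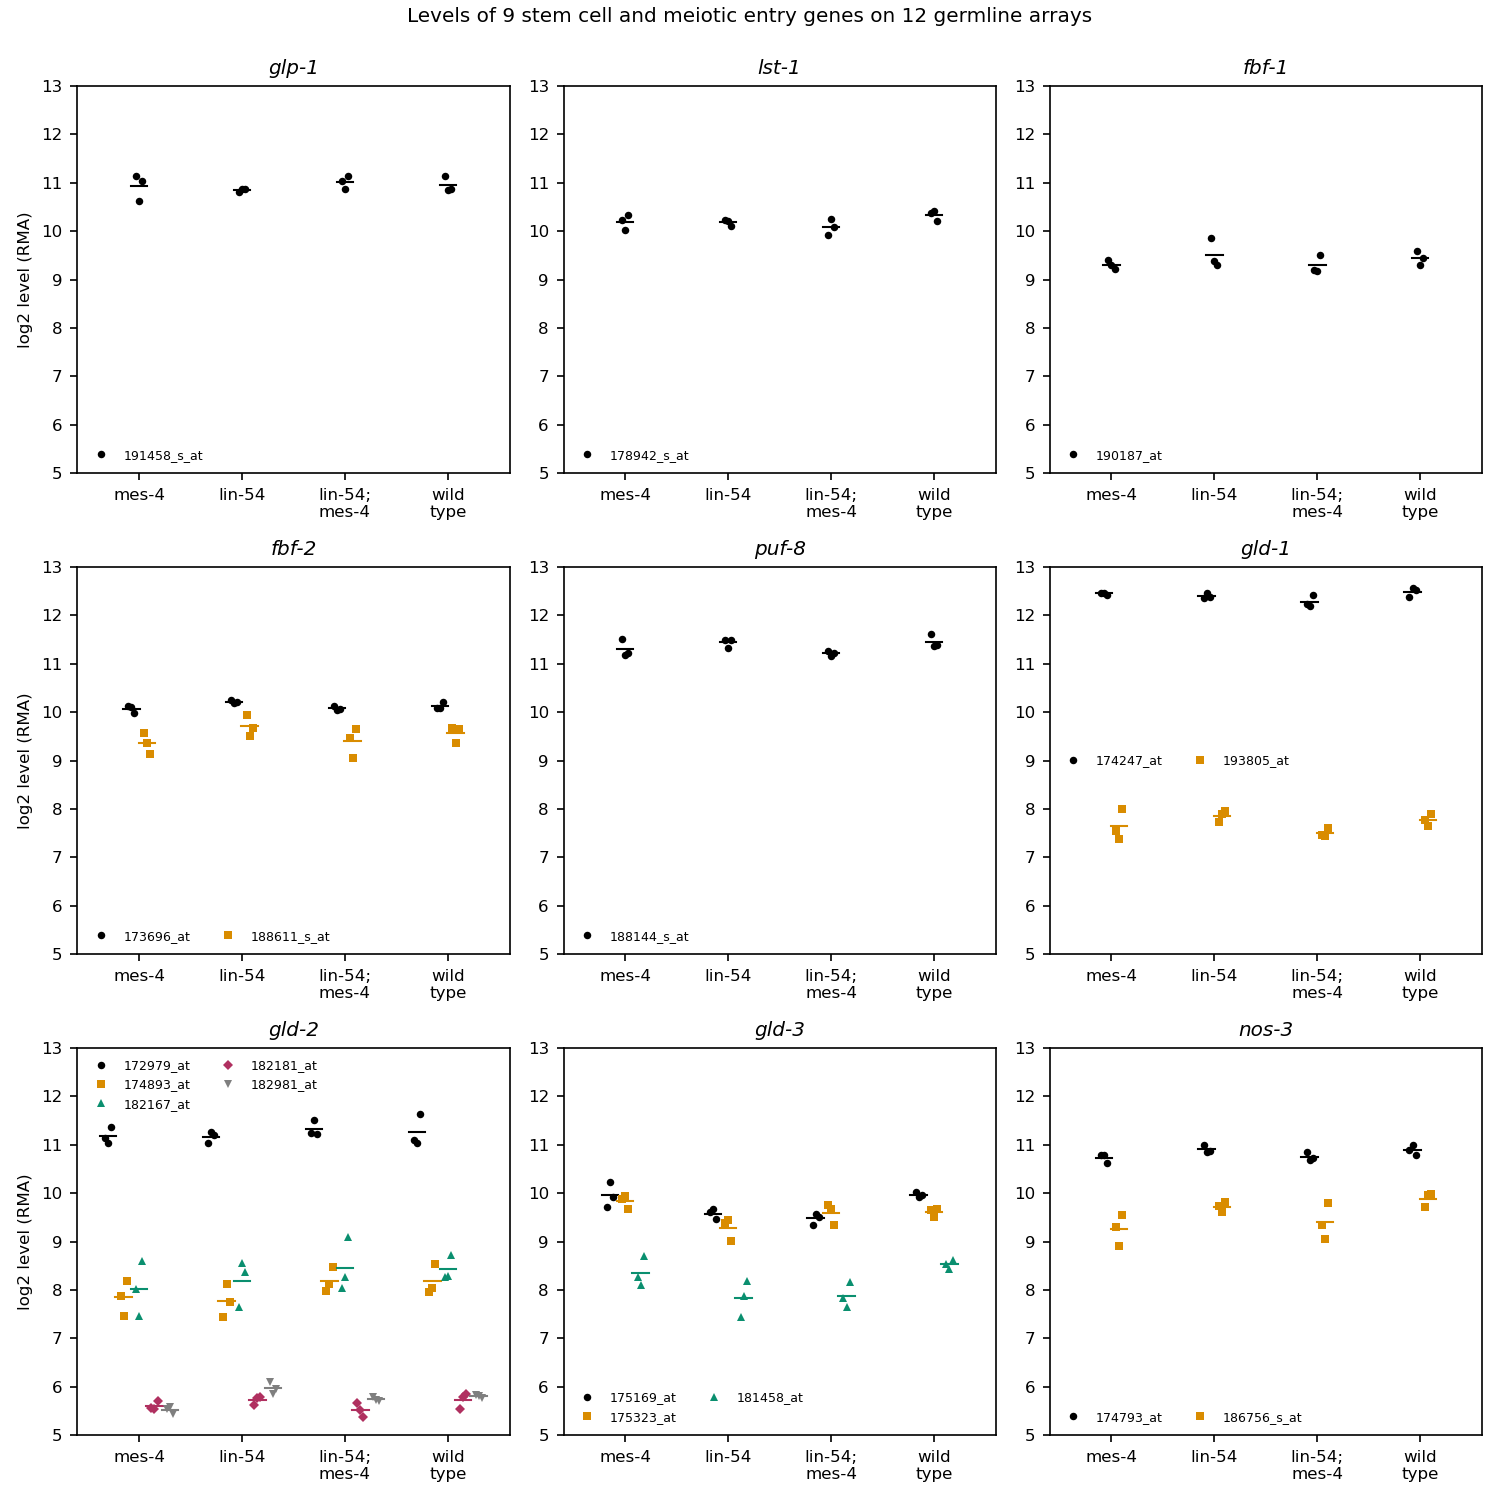
Log2 level of each probe set of the 9 genes on each of the 12 arrays, by genotype, with 3 points per genotype and a line at their mean; colors and markers tell probe sets of a gene apart. The levels of glp-1, between 10.62 and 11.13, overlap among all genotypes, whereas the gld-3 probe set 175169_at lies at 9.35 to 9.67 in lin-54 and the double mutant and at 9.71 to 10.24 in mes-4 and wild type.

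The receptor comes first. glp-1 (probe set 191458_s_at, chromosome III), which encodes the Notch receptor of germ cells, had log2 levels of 11.13, 10.62 and 11.04 in mes-4, 10.81, 10.87 and 10.88 in lin-54, 11.03, 10.88 and 11.13 in the double mutant, and 11.13, 10.86 and 10.88 in wild type. The ranges of the 4 genotypes overlapped, and mes-4 replicate 2 was the lowest array. In order, the genotype means were 11.02 in the double mutant, 10.96 in wild type, 10.93 in mes-4 and 10.86 in lin-54, and no neighbors differed beyond their spread. The largest of the 5 pairwise differences was 0.16, and their 95% intervals ran from −0.38 to 0.44. A loss or gain of glp-1 mRNA of 1.5-fold or more thus lay outside the intervals.

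lst-1 (178942_s_at, chromosome I), which GLP-1 signaling activates directly in stem cells, read 10.23, 10.03 and 10.33 in mes-4, 10.24, 10.21 and 10.11 in lin-54, 9.91, 10.26 and 10.08 in the double mutant, and 10.38, 10.41 and 10.20 in wild type. All 3 mutants had lower means than wild type, and each overlapped it. The double mutant was lowest at 10.08 ± 0.17, against 10.33 ± 0.11 in wild type (SD, n = 3 each). That difference was −0.25 (95% interval −0.49 to −0.02) with a q of 0.246 in limma, so it was not called. sygl-1, the other known GLP-1 target in stem cells (179181_at), averaged 6.95 ± 0.20 in mes-4, 7.01 ± 0.13 in lin-54, 6.63 ± 0.01 in the double mutant and 6.95 ± 0.19 in wild type (SD, n = 3 each), and its lower level in the double mutant than in lin-54 (−0.38, q = 0.115) was not called either. Because germlines were pooled, fewer stem cells and less RNA per stem cell cannot be told apart in these levels.

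The PUF proteins bind elements in target mRNAs and mostly hold their translation back. fbf-1 (190187_at, chromosome II) had levels of 9.40, 9.31 and 9.21 in mes-4, 9.85, 9.38 and 9.29 in lin-54, 9.20, 9.17 and 9.50 in the double mutant, and 9.59, 9.29 and 9.45 in wild type. Every pair of genotypes overlapped, with intervals from −0.54 to 0.38. fbf-2, its near-identical paralog, has 2 probe sets. The probe set 173696_at spanned 9.99 to 10.12 in mes-4, 10.18 to 10.25 in lin-54, 10.05 to 10.13 in the double mutant and 10.08 to 10.21 in wild type, with intervals from −0.28 to 0.24. The probe set 188611_s_at was more scattered, and its genotype means of 9.35 in mes-4, 9.71 in lin-54, 9.40 in the double mutant and 9.56 in wild type were not told apart (intervals −0.68 to 0.52). A further probe set, 190188_s_at, is assigned to fbf-1 and fbf-2 together and is not among the 18. It averaged 8.88 ± 0.11 in mes-4, 9.09 ± 0.10 in lin-54, 8.84 ± 0.22 in the double mutant and 9.08 ± 0.09 in wild type (SD, n = 3 each), a mean mes-4 effect of −0.23 with q = 0.063. Cross-hybridization between fbf-1 and fbf-2 cannot be separated here, and over the 12 arrays their levels correlated at 0.80, a description only.

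puf-8 (188144_s_at, chromosome II), a PUF gene that acts in both proliferation and the sperm and oocyte choice, read 11.51, 11.18 and 11.22 in mes-4, 11.50, 11.33 and 11.49 in lin-54, 11.26, 11.16 and 11.22 in the double mutant, and 11.62, 11.36 and 11.38 in wild type. The 3 double mutant arrays lay below the 3 wild-type arrays and below the 3 lin-54 arrays. Groups of 3 arrays did not overlap for 21.2% of one-gene probe sets in the first of these comparisons and for 19.8% in the second. The mean mes-4 effect on puf-8 was −0.19 with q = 0.0941 in limma. It was called with the replicate number as a block (q = 0.0376) and without mes-4 replicate 1 (−0.24, q = 0.0312), and under none of the other alternatives.

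The GLD-1 branch comes next. GLD-1 is a KH-domain RNA-binding protein that represses mRNAs in early meiosis, and gld-1 (chromosome I) has 2 probe sets. The probe set 174247_at had levels of 12.46, 12.47 and 12.43 in mes-4, 12.36, 12.46 and 12.37 in lin-54, 12.23, 12.20 and 12.42 in the double mutant, and 12.38, 12.57 and 12.52 in wild type. The double mutant was lowest, with a difference from wild type of −0.21 (95% interval −0.39 to −0.03) and a q of 0.19. The other, 193805_at, averaged 7.64 ± 0.32 in mes-4, 7.86 ± 0.11 in lin-54, 7.50 ± 0.08 in the double mutant and 7.77 ± 0.13 in wild type (SD, n = 3 each), also lowest in the double mutant, with a difference from lin-54 of −0.36 and q = 0.197. No gld-1 difference was called in any of the 8 contrasts as fitted, but some alternatives called it lower. The mean mes-4 effect was called with the replicate block (−0.25, q = 0.0426), after a further quantile normalization (−0.42, q = 0.00831) and without mes-4 replicate 3 (−0.34, q = 0.0129). The mean lin-54 effect was called at −0.13 with probe sets above the median level only (q = 0.0391) and with an intensity trend (q = 0.0488), and at −0.17 without double mutant replicate 3 (q = 0.039). The double mutant was called over lin-54 after the further quantile normalization (−0.51, q = 0.046). Means of the 6 arrays without MES-4 and the 6 with it were 7.57 and 7.82 on 193805_at, and 12.37 and 12.45 on 174247_at. Without and with LIN-54 they were 7.68 and 7.71 on 193805_at, and 12.34 and 12.47 on 174247_at. The larger difference thus lay on another probe set for each effect, and these probe sets correlated at only 0.34 over the 12 arrays.

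nos-3 (chromosome II) encodes a Nanos-family protein that acts with FBF and GLD-1. On probe set 186756_s_at it read 9.31, 8.90 and 9.55 in mes-4, 9.73, 9.60 and 9.81 in lin-54, 9.35, 9.06 and 9.79 in the double mutant, and 9.71, 9.97 and 9.98 in wild type. The 3 mes-4 arrays were all below the 3 wild-type arrays, as occurred for 20.5% of one-gene probe sets, whereas double mutant replicate 3 reached into the lin-54 range. The difference between mes-4 and wild type was −0.63 (SE 0.19, 95% interval −1.05 to −0.22) with q = 0.0735. Over both backgrounds nos-3 fell by 0.48 on the log2 scale with loss of MES-4 (SE 0.13, q = 0.0301), to a mean of 9.33 ± 0.32 over the 6 arrays without MES-4, against 9.80 ± 0.15 over the 6 with it (SD). These sets of 6 overlapped, as did all but 3.42% of one-gene probe sets. The call was kept in 6 of 12 fits that each left out 1 array, and lost without mes-4 replicate 2, lin-54 replicate 3, double mutant replicate 1 or 2, or wild-type replicate 2 or 3, with q up to 0.0773. It rests on a probe set of the type that other transcripts can share. The second nos-3 probe set, 174793_at, read 10.78, 10.79 and 10.63 in mes-4, 10.99, 10.86 and 10.88 in lin-54, 10.85, 10.69 and 10.73 in the double mutant, and 10.89, 10.99 and 10.78 in wild type, with a mean mes-4 effect of −0.15 that was not called (q = 0.0888). The sign was the same on both probe sets and the size was not.

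The GLD-2 branch held the other calls. GLD-3 is a Bicaudal-C family KH protein that binds the poly(A) polymerase GLD-2 and stimulates it, and gld-3 (chromosome II) was the gene that moved most clearly with LIN-54. Its probe set 175169_at read 9.71, 10.24 and 9.93 in mes-4, 9.60, 9.67 and 9.46 in lin-54, 9.35, 9.57 and 9.51 in the double mutant, and 10.02, 9.91 and 9.97 in wild type. The 6 arrays without LIN-54 (median 9.54) all lay below the 6 with it (median 9.95), and the gap between the nearest arrays, 9.67 and 9.71, was narrow. Such a split of the 6 from the 6 was found for 4.95% of one-gene probe sets. gld-3 fell in the double mutant relative to mes-4 by 0.48 (SE 0.12, 0.715 of the mes-4 level, q = 0.0278) and relative to wild type by 0.49 (SE 0.12, 0.712 of the wild-type level, q = 0.0383). The difference between lin-54 and wild type on this probe set was −0.39 (95% interval −0.65 to −0.13) with a q of 0.0629, just above the threshold, although the 3 lin-54 arrays lay below the 3 wild-type arrays (26.8% of one-gene probe sets did not overlap in that comparison, and 22.6% did not in the double mutant over mes-4). Over both backgrounds gld-3 fell by 0.44 on the log2 scale without LIN-54 (SE 0.09, 95% interval −0.62 to −0.25, q = 0.00334), which is 0.738 of the level with LIN-54.

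The other gld-3 probe sets gave the same sign with other patterns. Probe set 181458_at read 8.26, 8.10 and 8.70 in mes-4, 7.43, 7.87 and 8.19 in lin-54, 7.83, 7.65 and 8.17 in the double mutant, and 8.53, 8.43 and 8.62 in wild type. Its difference between lin-54 and wild type was −0.70 (95% interval −1.14 to −0.25, q = 0.0539), and its mean lin-54 effect was −0.58 with q = 0.0101. Probe set 175323_at read 9.88, 9.95 and 9.67 in mes-4, 9.39, 9.45 and 9.02 in lin-54, 9.75, 9.68 and 9.35 in the double mutant, and 9.65, 9.50 and 9.68 in wild type. On this probe set lin-54 was low and the double mutant was not, with a difference of −0.01 between the double mutant and wild type (95% interval −0.31 to 0.28) and a mean lin-54 effect of −0.28 (q = 0.0373, kept in 6 of 12 fits that each left out 1 array and lost without mes-4 replicate 1 or 2, lin-54 replicate 3, double mutant replicate 3, or wild-type replicate 1 or 3). All 3 probe sets thus had a called mean lin-54 effect below zero, yet over the 12 arrays they correlated with each other at only 0.14 to 0.57. On 175323_at the level was higher without MES-4, at 9.71 ± 0.21 against 9.45 ± 0.24 with it (SD, 6 arrays each). The same means were 9.72 and 9.77 on 175169_at, and 8.12 and 8.18 on 181458_at. The mean mes-4 effect on gld-3 was not called as fitted. It was called higher with the replicate block (0.27, q = 0.0386) and with probe sets above the median level only (0.27, q = 0.0386). Without double mutant replicate 3 it was also called (0.33, q = 0.0393). Which gld-3 transcripts each probe set reads is not given in the sources used here.

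The gld-3 call for the mean lin-54 effect was kept in all 12 fits that each left out 1 array (highest q 0.0111). The call in the double mutant over mes-4 was kept in 8 of 12 and lost without mes-4 replicate 2 or 3 or double mutant replicate 1 or 3 (q up to 0.106). The call in the double mutant over wild type was kept in 5 of 12 and lost without any 1 of the wild-type or double mutant arrays or lin-54 replicate 2 (q up to 0.143). The interaction on 175169_at was −0.09 (95% interval −0.47 to 0.28), an interval wide enough to hold the mean lin-54 effect of −0.44 itself.

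Mean levels of the sperm, oocyte and sheath marker lists moved with the same arrays. The sperm markers were higher without LIN-54 (23 of 26 called higher for the mean lin-54 effect, against 11.7% of all genes). The 12 oocyte markers averaged 10.75 to 11.05 in lin-54 and 10.99 to 11.33 in the double mutant, against 11.65 to 11.70 in mes-4 and 11.43 to 11.64 in wild type. The 7 gonadal sheath markers averaged 6.29 to 6.92 in lin-54 and 6.78 to 7.01 in the double mutant, against 7.14 to 7.43 in mes-4 and 7.11 to 7.51 in wild type. In the sheath list the lower mean came with 2 called genes of 7, tbh-1 (−3.47 in lin-54 over wild type) and inx-8 (−2.46), and the list median was 0.09, against 0.05 over all genes. The mean of the oocyte list, of which 8 of 12 fell in lin-54 over wild type (3.48% of all genes did), did not overlap between arrays without and with LIN-54, as for gld-3 on 175169_at. That count of 8 ran from 2 to 9 over the 12 fits that left out 1 array (7 without lin-54 replicate 2), moved by more than 1.5 times without lin-54 replicate 3 or wild-type replicate 1 or 3. The muscle list averaged 6.24 to 7.26 in lin-54 and 6.37 to 7.08 in the double mutant, against 6.15 to 6.71 in mes-4 and 6.25 to 6.52 in wild type. In the same order the intestine list averaged 6.97 to 8.31, 6.95 to 7.29, 7.07 to 8.98 and 7.50 to 8.16. The neuron list stayed between 5.74 and 5.90. The part of sperm, oocyte, sheath and other somatic transcripts in the gld-3 difference was not tested. By array, the sperm list averaged 9.36, 6.88 and 8.33 in lin-54 and 9.39, 7.43 and 8.93 in the double mutant. In both genotypes the array lowest for sperm markers, replicate 2, was the highest for gld-3 on 175169_at. On 175323_at this held in lin-54 (9.45) but not in the double mutant, where replicate 1 was highest (9.75, against 9.68 for replicate 2). On 181458_at it held in neither genotype. There lin-54 replicate 3 was highest (8.19, against 7.87 for replicate 2), and double mutant replicate 2 was lowest (7.65). The count of sperm markers called higher in lin-54 over wild type was 10 of 26, against 2.6% of all genes. It ran from 0 to 22 over the 12 fits that left out 1 array (22 without lin-54 replicate 2), moved by more than 1.5 times by every array but mes-4 replicate 3 and double mutant replicate 1. Without lin-54 replicate 2 the mean lin-54 effect on gld-3 was −0.46 (q = 0.00684).

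**Figure D2:**
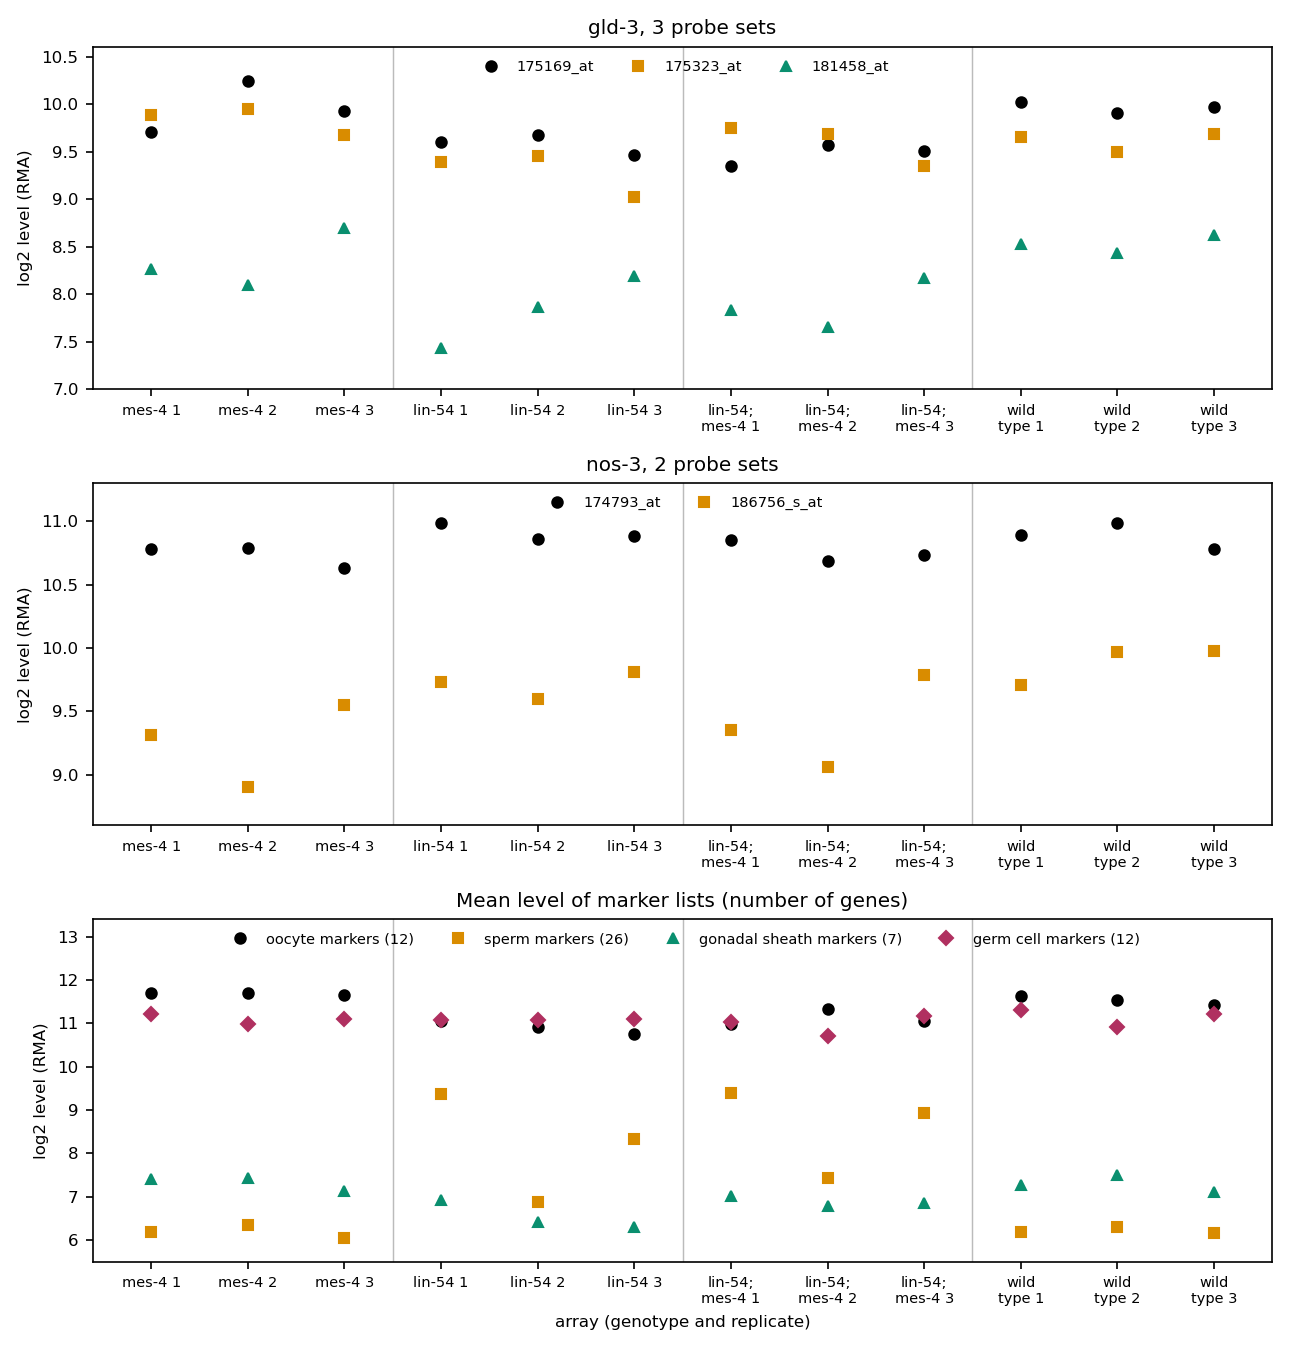
Log2 level on each array, grouped by genotype, of the 3 gld-3 probe sets (top), the 2 nos-3 probe sets (middle) and the mean of 4 marker lists (bottom, number of genes in parentheses). The gld-3 probe set 175169_at and the oocyte list lie lower on all 6 arrays without LIN-54. So does the sheath mean, which carries 2 called genes of 7. The mean of the germ cell list lies between 10.71 and 11.31. For the mean lin-54 effect, 5 of its 12 genes were called lower and 1 higher, against 10.9% and 11.7% of all genes. Its median was −0.25, against 0.05 over all genes.

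gld-2 (chromosome I), which encodes the cytoplasmic poly(A) polymerase itself, had 5 probe sets that differed in signal and in behavior. The brightest, 172979_at, averaged 11.17 ± 0.17 in mes-4, 11.17 ± 0.12 in lin-54, 11.33 ± 0.16 in the double mutant and 11.26 ± 0.33 in wild type (SD, n = 3 each), and its intervals ran from −0.43 to 0.50. The probe sets 174893_at and 182167_at had means of 7.76 to 8.46 and were too scattered to tell genotypes apart, with intervals that reached −1.14 and 1.18. Both gld-2 calls came from 182981_at, which read 5.54, 5.58 and 5.43 in mes-4, 6.10, 5.85 and 5.95 in lin-54, 5.79, 5.73 and 5.71 in the double mutant, and 5.82, 5.81 and 5.77 in wild type. On that probe set the mean mes-4 effect was −0.25 (SE 0.06, q = 0.00861) and the mean lin-54 effect was 0.20 (SE 0.06, q = 0.0186), both kept without any single array. Its levels lay around the array medians of 5.81 to 5.93, where signal is dim. The other 4 gld-2 probe sets were not called, and both calls were lost when the probe sets of a gene were averaged. When only probe sets above the median level were kept, the mean mes-4 effect on gld-2 turned to 0.04 (q = 0.4).

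**Figure D3:**
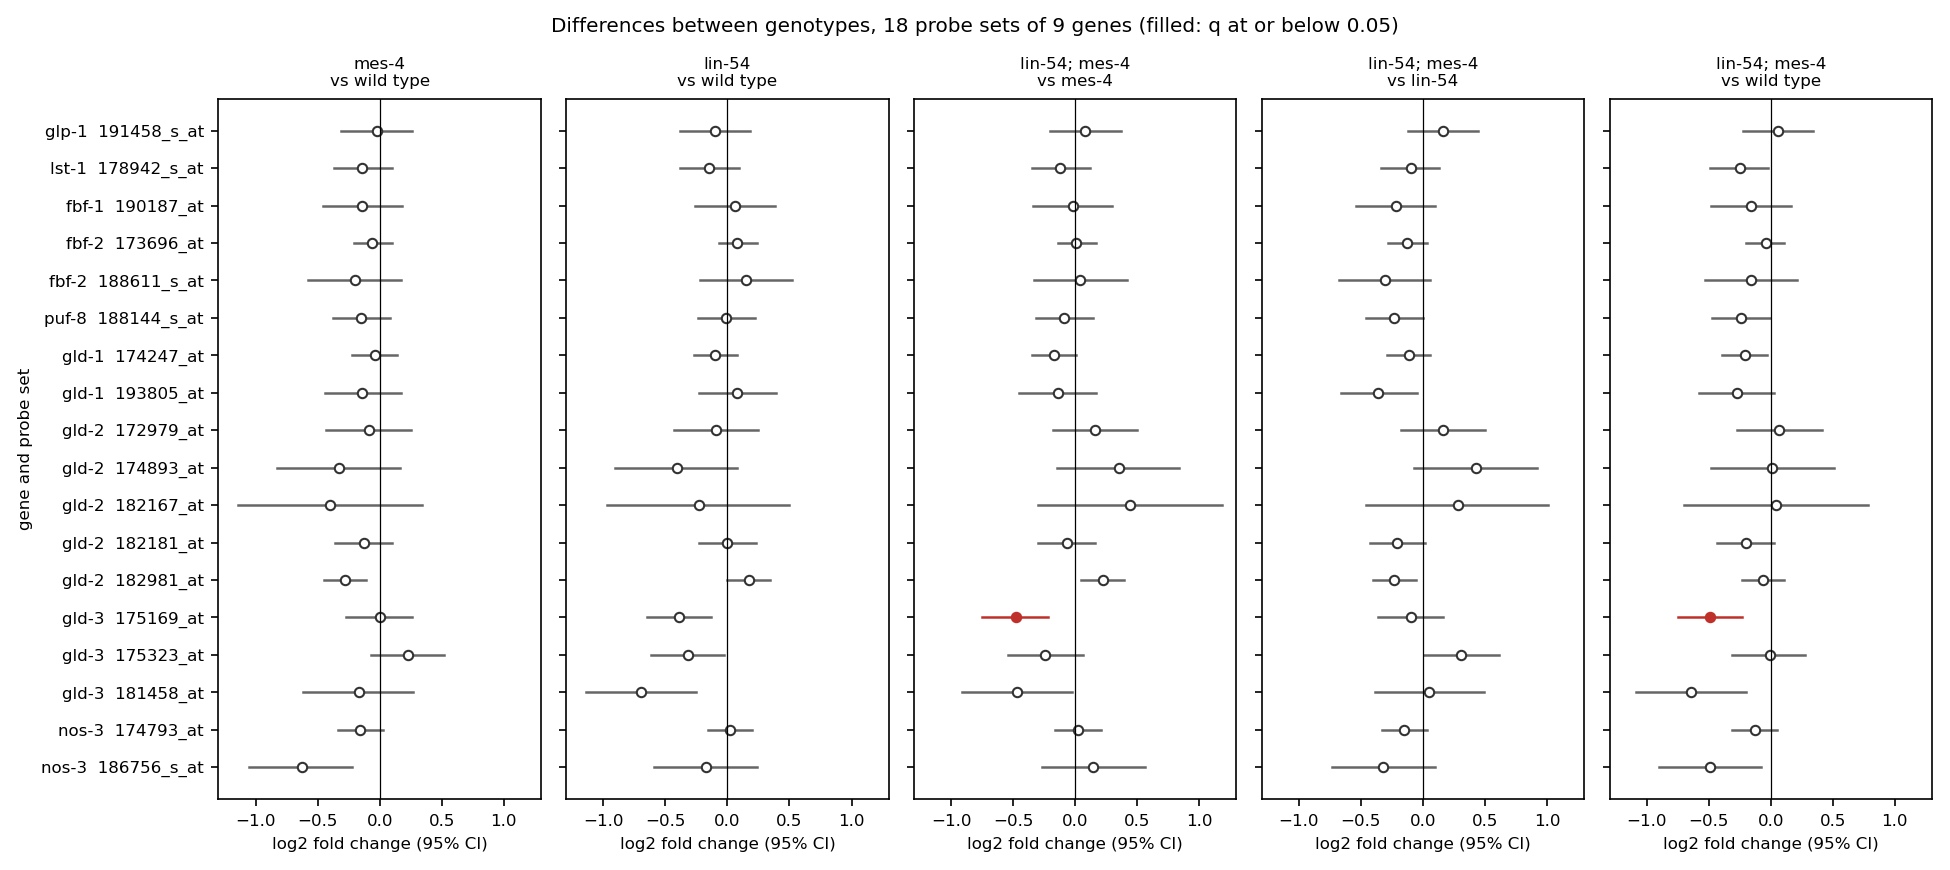
Log2 fold change of each of the 18 probe sets in the 5 pairwise comparisons, with 95% confidence intervals from limma; filled red points have q at or below 0.05. Most intervals cross zero, and the 2 filled points are gld-3 175169_at in the double mutant over mes-4 (−0.48) and over wild type (−0.49).

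**Figure D4:**
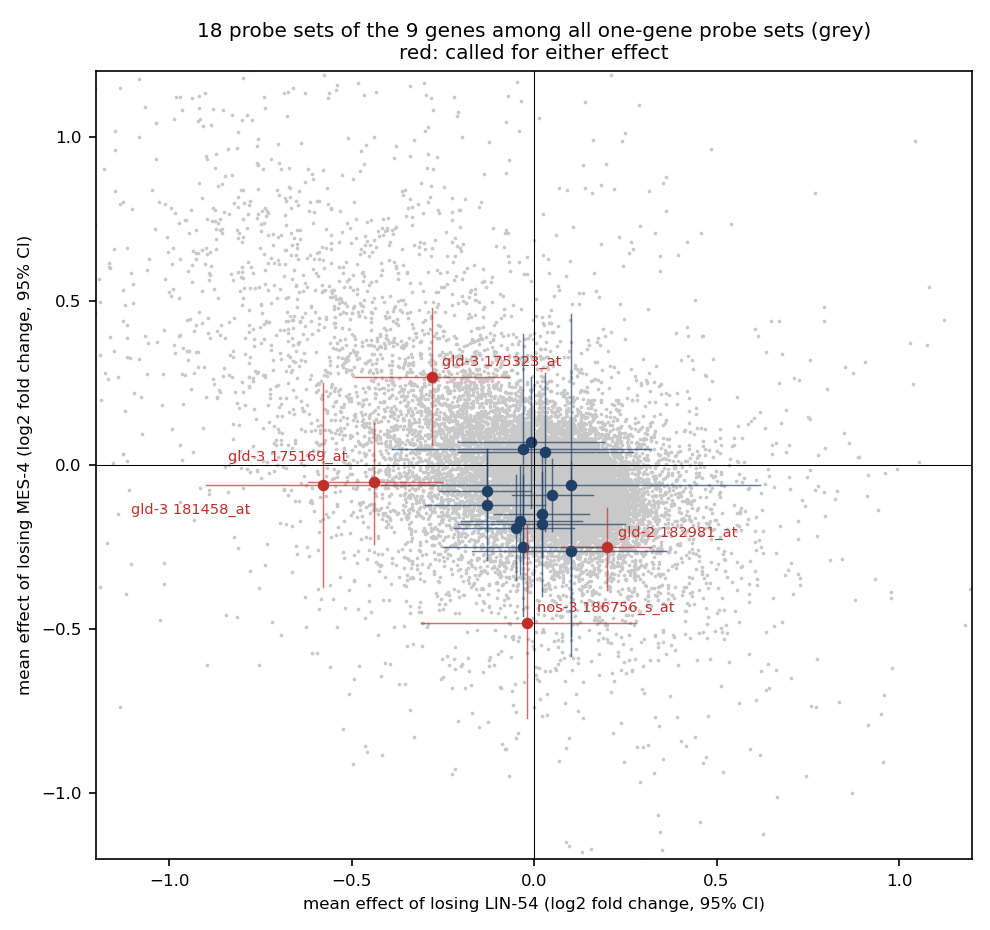
Mean effect of losing MES-4 (vertical) against the mean effect of losing LIN-54 (horizontal) on the log2 scale, for the 18 probe sets with 95% confidence intervals over all one-gene probe sets in gray; 463 of the gray probe sets lie beyond the axes. The 3 gld-3 probe sets lie left of zero (−0.58 to −0.28), and nos-3 186756_s_at lies lowest (−0.48).

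How the 9 genes varied can be set beside the array as a whole. The span between the highest and lowest genotype mean had a median of 0.30 over the 18 probe sets (0.14 to 0.70), against 0.24 over all one-gene probe sets, and the pooled SD within genotypes had a median of 0.17, against 0.14. Both medians were thus slightly higher for the 9 genes than for the array. Over the 12 arrays, the strongest correlation between 2 members other than that of fbf-1 with fbf-2 was 0.68, between fbf-2 and puf-8, whereas gld-3 correlated with the other 8 at between −0.36 and 0.35. The genes whose levels were most like gld-3 were T01C3.3 (r = 0.964), clic-1 (0.959) and clec-87 (0.957). For nos-3 they were hprt-1 (0.965), best-2 (0.925) and C10B5.1 (0.923). For glp-1 the likeness was weaker, with ubxn-4 at 0.889. These values are the highest among all genes over 12 arrays of 4 genotypes and carry no test.

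Calls were also made among genes that act around the 9. In mes-4 over wild type, 15 other genes of the GLP-1 (Notch) pathway had a median log2 fold change of 0, against −0.04 over all genes. Of the 15, 3 were called higher, where 4.04% of all genes were, and none fell. They were adm-4, an ADAM-family metalloprotease (+1.73, q = 0.00037), epn-1, an epsin used in endocytosis (+1.68, q = 0.00596), and sel-12, a presenilin (+0.91, q = 0.0355). All 3 are X-linked and are the only X-linked genes of the 15, whereas the 9 regulators lie on chromosomes I, II and III. adm-4 averaged 9.79 in mes-4, 7.30 in lin-54, 9.54 in the double mutant and 8.06 in wild type, and epn-1 averaged 10.55, 8.39, 10.43 and 8.87 in the same genotypes. adm-4 and epn-1 rose too in the double mutant over lin-54 (by 2.24 and 2.04) and over wild type (by 1.48 and 1.56). The last epn-1 call was lost without wild-type replicate 3 (q = 0.0556). The sel-12 call was kept in 6 of 12 fits that left out 1 array, and lost (q up to 0.152) without mes-4 replicate 2 or 3, double mutant replicate 3, wild-type replicate 2 or 3, or lin-54 replicate 2. adm-4 fell in lin-54 over wild type (−0.75, q = 0.0384), a call lost without any 1 of the lin-54 or wild-type arrays or double mutant replicate 3 (q up to 0.12).

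Of 21 measured PUF genes and FBF partners, the X-linked puf-9 rose in mes-4 over wild type (+3.00 on 174989_at, q = 0.00395). On that probe set its means were 9.83 in mes-4, 6.35 in lin-54, 8.56 in the double mutant and 6.83 in wild type. The mes-4 arrays were spread, at 8.80, 9.70 and 10.98. Its other probe set, 191234_at, rose less (+1.59, q = 0.0357). In lin-54 over wild type, where 2.6% of all genes were called higher and 3.48% lower, puf-12 rose (+0.61) and 3 fell. Among these was puf-5, an oocyte PUF gene (−0.62, q = 0.0125), and the list median was −0.15 against 0.05 over all genes. The puf-12 call was lost without lin-54 replicate 3 and the puf-5 call without that array or wild-type replicate 1 (q up to 0.0606), and the count of 3 ran from 0 to 4 (2 without lin-54 replicate 2), moved most by those 2 arrays and wild-type replicate 3. For the double mutant over mes-4, where 2.41% of all genes were called higher and 5.36% lower, 2 rose and 5 fell, including puf-5 (−0.73), puf-11 (−0.69) and nos-2 (−1.12). The count of lower genes ran from 2 to 5 over the 12 fits, with mes-4 replicate 2 or any double mutant array moving it by more than 1.5 times (4 without lin-54 replicate 2). The puf-5 and puf-11 calls were kept in all 12. The nos-2 call was lost without mes-4 replicate 3 or double mutant replicate 1 or 3 (q up to 0.0777).

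Among 12 mRNAs known to be bound by FBF, lip-1, which encodes a phosphatase that restrains MAP kinase, fell in mes-4 over wild type (−1.19, q = 0.00461), in lin-54 over wild type (−0.77, q = 0.0369) and in the double mutant over wild type (−1.33, q = 0.00252). Its means were 5.44 in mes-4, 5.85 in lin-54, 5.30 in the double mutant and 6.63 in wild type. Those of the mutants lay near or below the array medians of 5.81 to 5.93, where signal is dim. The lip-1 call in lin-54 was lost in the absence of lin-54 replicate 2 or 3 or of wild-type replicate 1 or 3 (q up to 0.14), and the other 2 lip-1 calls were kept in all 12 fits. fog-3, which promotes sperm fate, rose in the double mutant over mes-4 (+1.38, q = 0.0192) and over wild type (+1.44, q = 0.0211). It read 8.96, 7.76 and 8.03 in the double mutant, 6.80, 7.15 and 6.68 in mes-4, and 6.73, 6.96 and 6.74 in wild type, and its lowest double mutant array was also the one lowest for the sperm list (7.43). The call over mes-4 was lost without double mutant replicate 1 or mes-4 replicate 1 or 3 (q up to 0.063), and that over wild type without its replicate 1 or 3 (q up to 0.0859). The list as a whole had medians of −0.15 in mes-4 and −0.05 in lin-54 over wild type, against −0.04 and 0.05 over all genes.

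Of 7 measured partners of the poly(A) polymerases, the X-linked poly(A)-binding protein gene pab-2 rose in mes-4 over wild type (+1.28 on 174888_at, q = 0.0271, not without wild-type replicate 2 or 3 or mes-4 replicate 3). Its other probe sets rose by 0.74 (q = 0.028), 0.89 (q = 0.186) and 0.32 (q = 0.153). gld-4, the second cytoplasmic poly(A) polymerase, fell in mes-4 over wild type (−0.61, q = 0.0498, kept only without mes-4 replicate 3 or lin-54 replicate 1 or 2). The gld-4 means were 5.60 in mes-4 and 6.22 in wild type, near the array medians of 5.81 to 5.93. None of the 7 was called in the other 4 pairwise comparisons with limma, nor in the mean lin-54 effect.

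A list of 18 measured mRNAs known to be bound by GLD-1 had its calls mainly in comparisons for LIN-54. In lin-54 over wild type, where 3.48% of all genes were called lower, 6 fell and none rose, with a median of −0.30 against 0.05 over all genes. For the double mutant over mes-4, 8 fell and none rose (median −0.36 against 0.04), where 5.36% of all genes were called lower. In the double mutant over wild type 6 fell (median −0.29 against 0), where 2.85% of all genes were. In mes-4 over wild type only pal-1 fell (−0.35, q = 0.0331, kept only without lin-54 replicate 1 or 3 or 1 of the double mutant arrays), and in the double mutant over lin-54 none was called in limma. rme-2, the yolk receptor gene of oocytes, averaged 12.30 in lin-54 and 12.22 in the double mutant, against 13.10 in mes-4 and 12.96 in wild type. 6 of the 18 are also oocyte markers, and these made up 4 of the 6 that fell in lin-54 over wild type and 5 of the 8 in the double mutant over mes-4. The count in lin-54 over wild type ran from 0 to 9 over the 12 fits that left out 1 array (4 without lin-54 replicate 2), and any wild-type array or lin-54 replicate 3 moved it by more than 1.5 times. The count in the double mutant over mes-4 ran from 5 to 7, moved by more than 1.5 times without mes-4 replicate 3 or double mutant replicate 1, and that over wild type ran from 1 to 7, moved as far without wild-type replicate 1 or double mutant replicate 1.

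**Figure D5:**
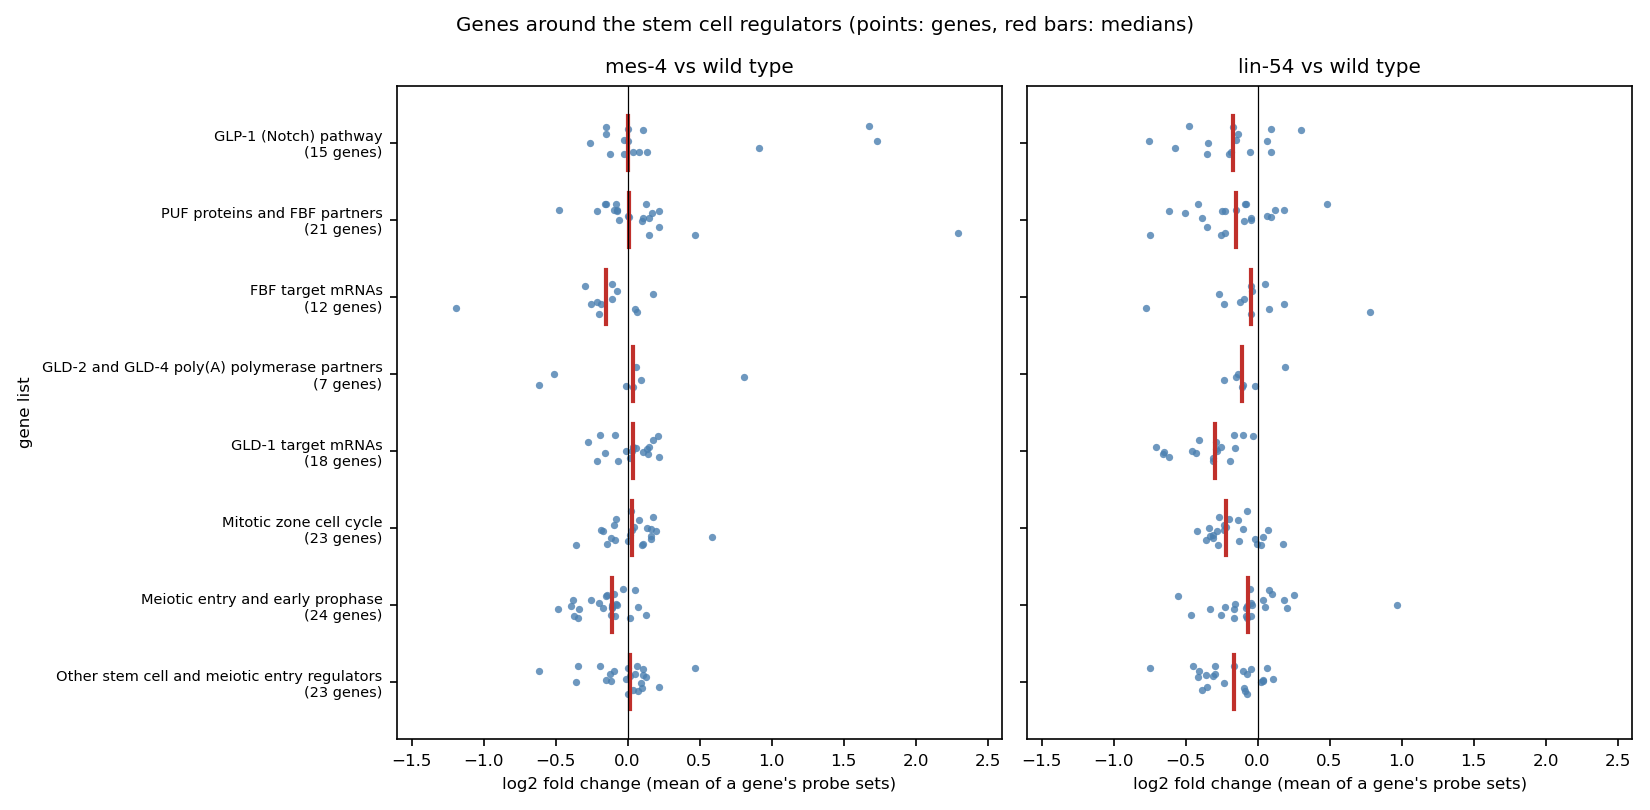
Log2 fold change of each gene (blue points, mean of its probe sets) in 8 lists of genes around the 9 regulators, with the list median as a red bar, for mes-4 over wild type (left) and lin-54 over wild type (right). The 3 points at the far right of the GLP-1 pathway list are adm-4, epn-1 and sel-12, and all 18 GLD-1 target mRNAs lie below zero in lin-54 over wild type.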

How the data were processed

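The deposited values were normalized log2 probe set levels that the authors made from Affymetrix C. elegans arrays by robust multichip averaging (RMA) in the affy package with quantile normalization, whose versions are not given in the sources used here. They were not normalized again. Of 22548 probe sets (77 controls left out), the platform annotation names 1 gene for 20766, several for 887 and none for 895. Symbols were matched to RefSeq (WBcel235), and 65 of the 20766 had no match. In limma 3.58.1 (R 4.3.3) the 12 arrays were fitted together with a mean for each genotype, with Storey q-values over the 22548 probe sets in each of 8 contrasts. A gene took its most significant one-gene probe set and was called at q at or below 0.05, as in the methods of the study. Intervals are 95% intervals of the model. The number of arrays limits precision, and RMA compresses changes of dim probe sets.

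The 9 genes were named in every comparison, list genes where called (at most 4 per list and comparison, by lowest p; uncalled genes, gene levels and nos-2 were added after their values were seen), and for each of the 9 the 3 genes of highest correlation. The members and all lists were chosen with earlier results of these data known. The model was tested on simulated data with independent arrays and added changes of 1.5-fold or more, which does not cover paired replicates or smaller changes. Alternatives were a replicate block, Benjamini-Hochberg adjustment, probe sets above the median level, no shared probe sets, median centring, a further quantile normalization, averaging the probe sets of each gene, an intensity trend, only the compared genotypes, and each array left out; list counts without each array were added after seeing the data.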

Additional observations from a re-analysis of the deposited data

How the results depend on the processing

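Of the 9 genes, the mean lin-54 effect on gld-3 kept its direction and its call under 20 of 20 alternatives (−0.67 to −0.37). Counts of the 9 genes called changed as follows. In mes-4 over wild type (0) the count was 1 with the replicate block, with probe sets above the median level only, with arrays centred on their median and with the probe sets of each gene averaged. In lin-54 over wild type (0) it was 1 under the same 4 alternatives and with only the compared genotypes. In the double mutant over mes-4 (1) it was 0 with only the compared genotypes, over lin-54 (0) it was 1 after a further quantile normalization, and over wild type (1) it was 0 without shared probe sets, after that normalization and with the intensity trend. For the mean lin-54 effect (2) it was 1 with the mean of probe sets. For the mean mes-4 effect (2) it was 5 with the replicate block, and 1 with Benjamini-Hochberg adjustment, without shared probe sets, after centring and with the mean of probe sets. The 5 were puf-8, gld-1, gld-2 and nos-3, lower, and gld-3, higher. The share of all genes called with the block is not given here. The mean mes-4 effect on gld-2 reversed to 0.04 with probe sets above the median level only. With each array left out, the counts were 0 to 1 in mes-4 over wild type, lin-54 over wild type and the double mutant over mes-4 and over wild type, 0 to 0 in the double mutant over lin-54 and the interaction, 2 to 3 for the mean lin-54 effect and 1 to 3 for the mean mes-4 effect. The cause of these changes was not tested.

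Counts over all genes moved by more than 1.5 times in these settings. Without shared probe sets, which leaves fewer genes to test, they were 621 in mes-4 and 532 in lin-54 over wild type, 729, 328 and 434 in the double mutant over mes-4, lin-54 and wild type, 2343 for the mean lin-54 effect and 1322 for the mean mes-4 effect. With Benjamini-Hochberg adjustment they were 592 in lin-54 over wild type and 2494 for the mean lin-54 effect. With probe sets above the median level only they were 1561 in lin-54 over wild type and 10 for the interaction, which had 1 with the replicate block and 11 with the mean of probe sets. With only the compared genotypes they were 716 in the double mutant over mes-4 and 322 over lin-54. With each array left out they ran from 455 to 1141 in mes-4 and 229 to 1313 in lin-54 over wild type, from 650 to 1530, 254 to 655 and 411 to 1015 in the double mutant over mes-4, lin-54 and wild type, and for the interaction from 1 to 23, the mean lin-54 effect from 2572 to 4304 and the mean mes-4 effect from 1361 to 2274.

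Replicate numbers 1 to 3 recur in the 4 genotypes, and the labels do not say what arrays of 1 number share. The paper states that the genotypes were handled in parallel. Deviations from the genotype means correlated at −0.07 to 0.43 between arrays of the same number (median 0.10, 18 pairs). Between arrays of other numbers they correlated at −0.40 to 0.28 (median −0.04, 36 pairs). For 12 of 12 arrays the closest were those of their own number, a hint from the data that numbers are paired. The main model did not use this pairing. With the replicate block gld-3 was called in lin-54 over wild type (−0.70, q = 0.0141) and nos-3 in mes-4 over wild type (q = 0.0236). glp-1, lst-1 and puf-8 have only probe sets of the shared type, so they gave no value without these. With 3 arrays per genotype, the 95% intervals of the 8 more scattered probe sets reached past 1.5-fold in at least 1 pairwise comparison.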

Other observations

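Genes of the mitotic cell cycle and of early meiotic prophase, the programs on either side of the switch that the 9 regulators control, were also counted. Of 23 cell cycle genes none was called in mes-4 over wild type or in the double mutant over lin-54 (limma), and 4 fell in lin-54 over wild type, with a median of −0.22 against 0.05 over all genes. There 3.48% of all genes were called lower. cdk-1, the mitotic cyclin-dependent kinase, fell in lin-54 over wild type (−0.42, q = 0.00507), in the double mutant over mes-4 (−0.39, q = 0.00478) and over wild type (−0.56, q = 0.00055), each kept without any single array. Over mes-4, 6 of the 23 fell in the double mutant, where 5.36% of all genes were called lower. Over the 12 fits that left out 1 array, that count ranged from 1 to 7, moving by more than 1.5 times without any mes-4 array, double mutant replicate 1 or 2, lin-54 replicate 2 (3 genes) or 3, or wild-type replicate 3. The 4 in lin-54 over wild type ranged from 1 to 4, moving as far without any lin-54 array (1 without replicate 2) or wild-type replicate 1 or 3.

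Of 24 genes of meiotic entry and early prophase, syp-1, a central protein of the synaptonemal complex, rose without LIN-54: by 0.97 in lin-54 over wild type (q = 0.00351), by 0.91 in the double mutant over mes-4 (q = 0.00258) and by 0.81 in the double mutant over wild type (q = 0.00621), each kept without any single array. dsb-1 (−0.55) and zyg-11 (−0.47) fell in lin-54 over wild type, and in mes-4 over wild type zim-2 (−0.49) and prom-1 (−0.37) fell. htp-1, a HORMA-domain protein of the chromosome axis, fell in the double mutant over lin-54 (−0.35, q = 0.0146, not without double mutant replicate 2) and over wild type (−0.40, q = 0.00625). The list medians were −0.11 in mes-4 and −0.06 in lin-54 over wild type, against −0.04 and 0.05 over all genes. The zim-2 call was lost without mes-4 replicate 3 or wild-type replicate 1 or 3, prom-1 without mes-4 replicate 2 or 3 or any wild-type array, dsb-1 without lin-54 replicate 2 or 3 or wild-type replicate 1 or 3, and zyg-11 without lin-54 replicate 2 or 3 or any wild-type array.

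Of 23 other regulators of the stem cell pool and of meiotic entry, gld-4 fell in mes-4 over wild type, and rrf-1 (−0.59), daf-18 (−0.44) and him-17 (−0.41) fell in lin-54 over wild type. Of all genes, 1.95% were called lower in the first comparison and 3.48% in the second. The gld-4 call is described with the poly(A) polymerases. The 3 calls in lin-54 ranged from 0 to 4 over the 12 fits, moving by more than 1.5 times without lin-54 replicate 2 (1 gene) or 3 or any wild-type array.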
